A study of Homo sapiens with 3 samples.

Results

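Semaphorins, SLIT proteins and ephrins are guidance ligands, and plexins, ROBO proteins and EPH kinases are their receptors. All genes whose symbols belong to these 6 families were taken from the gene list by name, which gave 58 genes of 33538: 20 semaphorins, 9 plexins, 3 SLIT, 4 ROBO, 14 EPH receptors and 8 ephrins. They were followed in single-cell RNA profiles of human blood vessel organoids, 3-dimensional cultures in which vascular cells form from stem cells. The starting cells were of the established embryonic line H1, carrying a PiggyBac-integrated cassette that expresses NEUROD1, a proneural transcription factor, with GFP under control of doxycycline. The 3 libraries were from day 45 organoids with no induction, with 15 days and with 45 days of induction by 1 µg/ml doxycycline, and all media held BDNF and NT-3 from day 15. When the 15 days of induction fell is not given. The cassette is thus present in the uninduced library too, GFP marks no sort, and each library is 1 pool of 5 to 6 organoids.

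Guidance receptors were first described on growing axons, where ligand binding steers the growth cone towards or away from a source. Blood vessels use the same families: PLXND1 on endothelium binds SEMA3E, and ephrin-B2 (EFNB2) and EPHB4 mark arterial and venous endothelium. Class 3 semaphorins are secreted and mostly act through plexins paired with neuropilins, whereas ephrins stay on the cell surface and need contact.

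The libraries held 10232, 5962 and 10765 barcodes with 59879923, 49488425 and 64171327 UMIs (unique molecules counted) for no induction, 15 days and 45 days, and 8230, 5078 and 8900 cells remained after filters and removal of predicted doublets. Between 13 and 33 barcode sequences were shared by any pair of libraries. Clusters were built without the 58 genes and named from marker lists, with 15 of 15 neuron markers raised in the neuron-like cluster, 14 and 9 of 15 endothelial markers in the 2 endothelial-like clusters and 12 of 15 mural markers in the mural-like cluster. Neuron-like cells numbered 0 of 8230 without induction, which allows a share of up to 0.0365%, 293 at 15 days and 300 at 45 days. Endothelial-like cells numbered 482, 334 and 231, mural-like cells 308, 397 and 644, mesenchymal-like cells 5766, 3036 and 6283, epithelial-like cells 467, 252 and 519, and haematopoietic-like cells 66, 94 and 82. Cells outside these classes were a mixed cluster with liver genes (81, 239 and 17) and cycling cells (664, 310 and 592). Cluster 12 (396, 123 and 232 cells) was left unnamed, as it scored as mesenchymal but its leading genes held more mural markers. None of these was compared between libraries as a class. Their cells stayed in whole-library sums and in the rest that a class was set against. Levels are UMIs of a gene per 1000000 UMIs of the class (CPM), which count molecules from the 3′ end and need no scaling by length. Ranges in parentheses are exact 95% intervals and cover counting error only. With 1 library per group no test between conditions was possible, and differences between organoid batches cannot be told apart from induction.

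In all, 45 of the 58 genes reached 20 CPM with 20 UMIs in at least 1 named class of 1 library. EFNA2, EPHA6, EPHA10, PLXNB3 and ROBO3 stayed under 10 CPM in every class and library. PLXNC1, the receptor of SEMA7A, passed 10 CPM only in haematopoietic-like cells, at 41.6, 20.8 and 22.5 CPM in the 3 libraries in the order above, with under 20 UMIs each time. The class with the highest level was sought among the 6 named classes, without the cycling, liver-gene and unnamed clusters. It was the same at 15 and 45 days for 35 of the 45: endothelial-like for 8, neuron-like for 8, epithelial-like for 6, mesenchymal-like for 5, mural-like for 4 and haematopoietic-like for 4. Its interval lay above that of the next class in both libraries for 6, 5, 3, 0, 3 and 0 of these, so for the mesenchymal-like and haematopoietic-like genes the order of the top classes is not resolved.

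**Figure D1:**
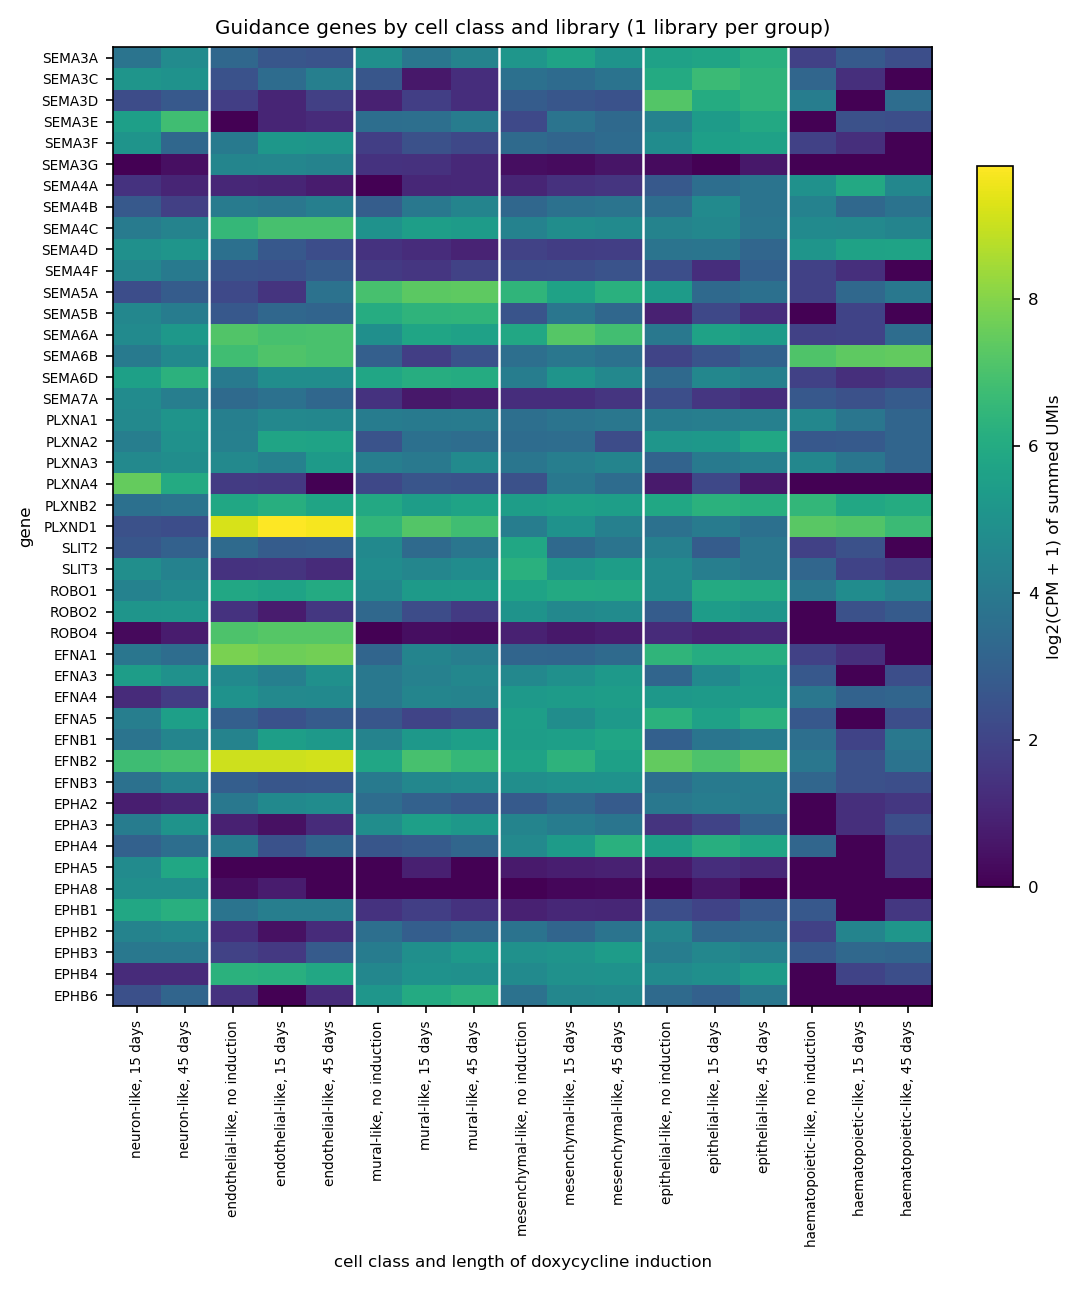
Levels of the 45 guidance genes (rows) in 6 cell classes of each library (columns), as log2(CPM + 1) of summed UMIs, 1 library per column group. PLXND1 and EFNB2 are brightest in endothelial-like cells, PLXNA4, EPHA5, EPHA8 and EPHB1 in neuron-like cells, and SEMA5A in mural-like cells.

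The endothelial-like cells were marked by a small set of receptors and ephrins. PLXND1, the plexin that receives SEMA3E (chromosome 3, 129555175 to 129606818, minus strand of GRCh38), was the most abundant, at 600.0 CPM (575 to 626) without induction, 899 CPM (865 to 935) after 15 days and 813 CPM (768 to 860.2) after 45. Neuron-like cells held 4.39 and 3.99 CPM, which is 0.488% and 0.490% of the endothelial-like level. The 15 endothelial markers at 15 days stood in neuron-like cells at a median 0.286% of their endothelial-like level (0.106 to 2.68%), and 14 at 45 days at 0.281% (0 to 2.58%). In cells thinned to 2000 UMIs, PLXND1 was detected in 66.6%, 75.7% and 74.7% of endothelial-like cells against 0 of 229 (which allows up to 1.31%) and 3 of 236 neuron-like cells. Thinning left out 66, 30 and 41 endothelial-like and 64 and 64 neuron-like cells, and the shares without it were 79.3%, 88.3% and 82.3% against 7.51% and 3.67%. ROBO4, an endothelial member of the ROBO family (chromosome 11, 124883691 to 124898500, minus strand), reached 134 CPM (122 to 146) without induction, 149 CPM (135 to 164) after 15 days and 150.3 CPM (131 to 171) after 45, and stayed at or under 1.31 CPM in each of the other 5 classes. ROBO1, the broadly expressed SLIT receptor, was at 58.3, 51 and 62.8 CPM in endothelial-like cells, close to the 50.3, 61.6 and 59.4 CPM of mesenchymal-like cells.

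EFNB2 was the leading ephrin of endothelial-like cells, at 536 CPM (512 to 561) without induction, 529 CPM (503 to 556) after 15 days and 559 CPM (521 to 598) after 45, and these intervals overlap. Its receptor EPHB4 was lower, at 76.3 CPM (67.4 to 86) without induction, 71.2 CPM (61.8 to 81.7) after 15 days and 58.8 CPM (47.2 to 72.4) after 45, and these intervals overlap too. Among endothelial-like cells thinned to 2000 UMIs, 190 of 416 without induction had EFNB2 alone, 35 EPHB4 alone and 26 both. The same counts were 154, 22 and 19 of 304 at 15 days and 88, 14 and 15 of 190 at 45 days. EFNB2 was detected in more cells than EPHB4 in each library. Cells with an EPHB4 UMI mostly had no EFNB2 UMI at this depth without induction, and were split about evenly in the other libraries. EFNB2 was not an endothelial gene alone: epithelial-like cells held 174, 133 and 182 CPM.

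Other endothelial-like ligands included EFNA1, a membrane-anchored ephrin, at 226, 198 and 209 CPM, and its receptor EPHA2 at 14.3, 24.1 and 26.1 CPM. The transmembrane semaphorins SEMA6A (142, 123 and 128 CPM), SEMA6B (109, 137 and 126 CPM) and SEMA4C (91.1, 123 and 124 CPM) were all above 90 CPM. SEMA3G, a secreted semaphorin known from endothelium, was modest at 20.9, 22 and 20.0 CPM but stayed under 2 CPM in the other 5 classes. SEMA6B was as high in haematopoietic-like cells, at 139, 166 and 176 CPM. Against all other cells of the same library, 10 of 38 genes were at least 2-fold higher in endothelial-like cells without induction, where 18.1% of all genes were. It was 11 of 39 in each induced library, where 14.8% (15 days) and 16.6% (45 days) of all genes were. The guidance genes' shares were thus 26.3%, 28.2% and 28.2%, and the gap was not tested. In each library 13 guidance genes were at least 2-fold lower, where 8.84%, 12.3% and 10.7% of all genes were. Called in all 3 libraries were PLXND1, ROBO4, EFNB2, EFNA1, SEMA3G, SEMA4C and SEMA6B.

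Few guidance genes of endothelial-like cells differed by 2-fold from no induction, but their share was above that of all genes, a gap that was not tested. Most endothelial-like cells fell in the same cluster in each library (412 of 482, 301 of 334 and 203 of 231). At 45 days 3 of the 27 genes that passed the level floor (11.1%) were at least 2-fold apart from no induction, where 2.15% of all genes were. At 15 days it was 2 of 27 (7.4%), where 1.4% of all genes were. The median log2 ratio of the guidance genes was 0.20 at 45 days against 0.05 for all genes, and 0.15 against 0.07 at 15 days. PLXNA2, a plexin for class 3 semaphorins with neuropilins and for SEMA6A, was called in both: it was 18.3 CPM (14.1 to 23.4) without induction, 52.4 CPM (44.3 to 61.5) after 15 days and 50.1 CPM (39.4 to 62.8) after 45. That is 2.86-fold higher (2.12 to 3.9) at 15 days and 2.74-fold higher (1.94 to 3.89) at 45 days, both set against the same uninduced library. SEMA3C, a secreted ligand of PLXND1 and PLXNA2, was 3.95-fold higher (2.05 to 7.84) at 45 days on 27 against 16 UMIs. SEMA5A was 3.51-fold higher (1.6 to 7.98) on 18 against 12 UMIs. EPHA4 was 3.46-fold lower (1.87 to 6.91) at 15 days on 13 against 55 UMIs. The last 3 rest on few molecules, and they were not called with a floor of 30 CPM. Between the induced libraries SEMA5A was the 1 gene of 26 that was 2-fold apart (0.983% of all genes). PLXND1 did not reach the 2-fold mark, but its 15 and 45 day intervals lay above that of the uninduced library.

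Neuron-like cells, found only with induction, carried another set of receptors. EPHB1, an EPH kinase that binds ephrin-B ligands, was 58.8 CPM (52.4 to 65.7) after 15 days and 71.1 CPM (61.9 to 81.3) after 45. EPHA5 (chromosome 4, 65319563 to 65670495, minus strand), a kinase for ephrin-A ligands, was 25.4 CPM (21.2 to 30.1) after 15 days and 55.8 CPM (47.7 to 64.9) after 45, and 0 UMIs were counted in endothelial-like cells of any library, which allows up to 0.857, 1.05 and 2.0 CPM. EPHA8 was 27.7 CPM (23.3 to 32.6) after 15 days and 27.6 CPM (22 to 34.2) after 45, and stayed under 1 CPM in each of the other 5 classes. EPHA5 was at most 2.05 CPM in any of the other 5 classes, and EPHB1 was also counted in endothelial-like cells at 12.9, 17.1 and 17.4 CPM. PLXNA4, a plexin of sensory and other axons that receives SEMA3A and SEMA6A, was 180.5 CPM (169 to 192) after 15 days and 63.1 CPM (54.5 to 72.8) after 45. ROBO2, the axonal SLIT receptor, was 33.8 CPM (29 to 39.1) after 15 days and 34.9 CPM (28.5 to 42.2) after 45, and ROBO1 was 19.3 and 24.3 CPM, below its endothelial-like level. ROBO2 was about as high in epithelial-like cells, at 41.7 and 33.3 CPM, and stood at 23.0 and 25.7 CPM in mesenchymal-like cells of these libraries. PLXNA1, PLXNA2 and PLXNA3 lay between 17.6 and 32.6 CPM.

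Neuron-like cells also made ligands. SEMA3E, the secreted ligand of PLXND1 (chromosome 7, 83363238 to 83649113, minus strand), was 45.6 CPM (40.0 to 51.8) after 15 days and 112 CPM (100.4 to 125) after 45. SEMA6D, a transmembrane semaphorin, was 46.7 CPM (41.1 to 53) after 15 days and 78.8 CPM (69.1 to 89.5) after 45, and EFNB2 was 107 CPM (98.5 to 116) after 15 days and 119 CPM (107 to 132) after 45. SEMA7A, a lipid-anchored semaphorin, stood at 25.8 and 17.3 CPM, and SEMA4D, which binds PLXNB2, at 29.2 and 33.9 CPM. SLIT1, the SLIT best known from the nervous system, was at 14.5 and 14 CPM and under 1 CPM in the other 5 classes. Against all other cells, 10 of 44 genes were at least 2-fold higher in neuron-like cells at 15 days and 12 of 43 at 45 days, where 18.9% and 21.6% of all genes were. The guidance genes' shares, 22.7% and 27.9%, lie near that background. At least 2-fold lower were 14 of 44 at 15 days and 12 of 43 at 45 days, where 16.3% and 12.4% of all genes were. The shares of lower guidance genes were thus above those of all genes, and this gap was not tested. Called in both libraries were EPHA5, EPHA8, EPHB1, PLXNA4, SEMA4D, SEMA4F, SEMA7A and SLIT1. At 15 days EPHA8 was 123-fold higher (62.8 to 273), EPHB1 23.9-fold higher (19 to 30.3) and SLIT1 24.1-fold higher (15 to 39.9).

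Upstream sequences were looked at for EPHA5, PLXNA4, SEMA3E, EPHA8 and EPHB1, which were among the genes highest in neuron-like cells. Those of SEMA3E, EPHB1 and EPHA8 are shown because these windows hold no annotated exon. Each is the 250 bases before a RefSeq gene start (GRCh38.p14, SEMA3E at chr7:83649140-83649389, minus strand, EPHB1 at chr3:134795010-134795259, plus strand and EPHA8 at chr1:22563239-22563488, plus strand), written on the gene's strand. Capitals mark AGGAAG, a core sequence bound by ETS factors, or its reverse complement.
SEMA3E: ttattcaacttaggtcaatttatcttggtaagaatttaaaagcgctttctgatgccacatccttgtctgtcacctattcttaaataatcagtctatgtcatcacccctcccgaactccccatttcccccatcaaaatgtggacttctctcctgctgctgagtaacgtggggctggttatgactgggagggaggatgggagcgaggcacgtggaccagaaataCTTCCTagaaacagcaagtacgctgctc
EPHB1: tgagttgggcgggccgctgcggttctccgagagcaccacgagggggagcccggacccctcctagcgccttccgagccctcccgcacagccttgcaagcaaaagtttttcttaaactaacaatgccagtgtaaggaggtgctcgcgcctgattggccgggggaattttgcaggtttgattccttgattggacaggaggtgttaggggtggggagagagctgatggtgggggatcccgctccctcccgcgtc
EPHA8: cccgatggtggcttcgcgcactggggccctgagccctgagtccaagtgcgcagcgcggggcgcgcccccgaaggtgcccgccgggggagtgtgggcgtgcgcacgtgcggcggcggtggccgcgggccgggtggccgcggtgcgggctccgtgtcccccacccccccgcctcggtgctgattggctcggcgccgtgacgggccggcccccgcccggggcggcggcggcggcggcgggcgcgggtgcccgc
SEMA3E held AGGAAG on the other strand, 28 bases before the start, and none of the 3 windows held CAGATG, an E-box bound by proneural factors. The window of another SEMA3E start (chr7:83641432-83641681, not shown), also free of exons, held neither sequence. Over all starts of the 8 genes highest in neuron-like cells, CAGATG stood in 1 of 11 windows on either strand (PLXNA4, 9.09%) and AGGAAG in 3 of 11 (27.3%). Of all 35116 promoters in the table, 12.2% held CAGATG and 28.7% AGGAAG. For the genes highest in endothelial-like cells, AGGAAG stood in 2 of 8 windows (PLXND1 and ROBO4, 25%). Promoters were found for 53 of the 58 genes, some with several starts.

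Of 36 guidance genes that passed the floor, 5 were at least 2-fold apart between neuron-like cells at 45 and 15 days, where 2.99% of all genes were. EFNA5, an ephrin-A ligand, was 17.4 CPM (14 to 21.3) after 15 days and 45.9 CPM (38.5 to 54.2) after 45, and SEMA3F, a secreted repellent, was 32.4 CPM (27.7 to 37.7) after 15 days and 8.64 CPM (5.64 to 12.7) after 45. The intervals of these 2 and of SEMA3E, EPHA5 and PLXNA4 did not overlap between the libraries. SEMA3E was 2.46-fold higher (2.07 to 2.91) at 45 days, EPHA5 2.2-fold higher (1.74 to 2.78) and EFNA5 2.64-fold higher (2.01 to 3.48). PLXNA4 was 2.86-fold lower (2.44 to 3.36) at 45 days and SEMA3F 3.75-fold lower (2.47 to 5.91). With the stricter cell filter SEMA3E (log2 0.91 in place of 1.21) and EPHA5 (0.87 in place of 1.00) were no longer called. The median log2 ratio of the 36 genes was 0.16 and that of all genes 0.07. EPHB1, EPHA8, ROBO2 and EFNB2 had overlapping intervals.

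**Figure D2:**
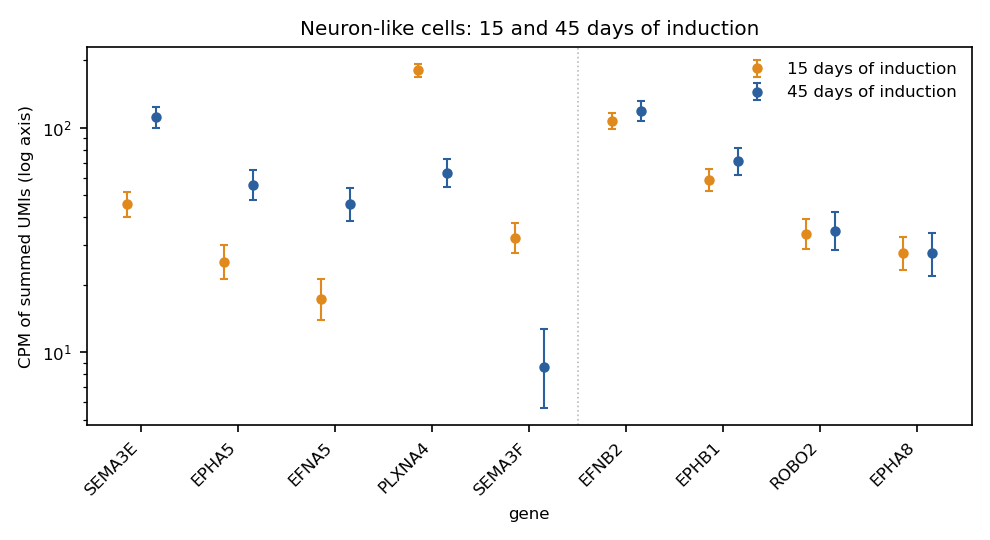
Levels (CPM of summed UMIs, log axis) of 9 guidance genes in neuron-like cells at 15 and 45 days of induction, 1 library each, with exact 95% counting intervals. The 5 genes left of the dotted line were at least 2-fold apart, with SEMA3E at 45.6 and 112 CPM and PLXNA4 at 180.5 and 63.1 CPM.

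The neuron-like class was not uniform, and its makeup differed between the libraries. Subclusters were made after the data were seen. The deepest, with a median of 26773 UMIs per cell, held 113 cells at 15 days and 94 at 45 days. Another, with HES6 and INSM1 among its leading genes, a median of 3610 UMIs and 0.15% mitochondrial UMIs, held 40 and 119. The remaining 2, with medians of 3351 and 2312 UMIs, held 118 and 17, and 22 and 70. Within the deepest subcluster 5 of 36 genes that passed the floor were at least 2-fold apart, where 3.21% of all genes were, and the median log2 ratio was 0.07 against 0.04 for all genes. SEMA3E stood at 43.1 and 146 CPM there, EPHA5 at 21.2 and 67.7 CPM, EPHA3, an ephrin-A receptor, at 14.6 and 39.8 CPM, PLXNA4 at 221 and 75.9 CPM and SEMA3F at 38.4 and 10.5 CPM. EFNA5 was 19.6 and 37.9 CPM there, under the mark, and 63.2 and 97.9 CPM in the shallower subclusters with 119 and 70 cells at 45 days. At 45 days SEMA3E was counted mostly in the deepest cells, with 319 UMIs there, 4 in the subcluster of 70 cells and 0 in that of 119 (which allows up to 6.54 CPM). At 15 days it was not confined to the deepest. It was 31.1 CPM in the subcluster of 40 cells (5 UMIs), 55.4 CPM in that of 118 (66 UMIs) and 48.5 CPM in that of 22 (3 UMIs). In the subcluster with HES6 and INSM1, EFNA5, EFNB1, SEMA3C and SEMA6D were at least 2-fold higher at 45 days, on 3, 3, 2 and 8 UMIs at 15 days. The fold interval of SEMA3C took in 1 (0.851 to 30.9), and those of EFNA5 and EFNB1 began at 1.05 and 1.01. The share of all genes called in this subcluster is not given here, so these genes are not read as a trait of the guidance genes. With each cell weighted equally the log2 ratio of SEMA3E fell to 0.35 from 1.21, and after thinning it was detected in 9.17% and 8.9% of neuron-like cells at 15 and 45 days (29.4% and 26.0% without thinning, at median depths of 10044 and 5103 UMIs). EPHA5 was 0.88 from 1.00 with equal weights, and PLXNA4, SEMA3F and EFNA5 kept their direction and the 2-fold mark.

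Mural-like cells, which wrap vessels, had the highest levels of SEMA5A and SEMA5B among the 6 classes, transmembrane semaphorins with thrombospondin repeats. SEMA5A was 122 CPM (109 to 137) without induction, 159 CPM (146 to 173) after 15 days and 164 CPM (152 to 177) after 45. Mesenchymal-like cells held 84.6, 49.5 and 73.2 CPM and, being more numerous, 65.5%, 52% and 61.3% of all SEMA5A UMIs against 6.96%, 27.2% and 16.5% in mural-like cells. SEMA5B was 66.3, 83.5 and 83.7 CPM, and EPHB6, an EPH receptor without kinase activity, was 34.7 CPM (27.5 to 43.1) without induction, 63.1 CPM (55.1 to 71.8) after 15 days and 77.7 CPM (69.5 to 86.6) after 45. At least 2-fold higher in mural-like cells than in the rest were 3 of 35 genes without induction, 5 of 36 at 15 days and 6 of 35 at 45 days, where 4.87%, 3.27% and 4.35% of all genes were. SEMA5B, EPHB6 and SEMA6D were called higher in each library, SEMA5A and EPHA3 in both induced libraries and PLXND1 at 45 days. More guidance genes were at least 2-fold lower there, 9, 11 and 7 in the same order, and the share of all genes lower is not given here. The median log2 ratios against the rest were -0.572, -0.335 and -0.091, where those of all genes were -0.001, -0.105 and -0.052. Between libraries, 4 of 29 genes were at least 2-fold apart at 45 days from no induction, where 2.86% of all genes were, with a median log2 ratio of 0.39 against 0.11 for all genes. EPHB3 was 16.3, 28.8 and 38.2 CPM, EFNB1 19.7, 36.8 and 45.9 CPM and SEMA4B 6.42, 14.4 and 20.8 CPM in the 3 libraries. These and EPHB6 were the 4, all higher, with EPHB6 2.24-fold higher (1.75 to 2.9) and EFNB1 2.33-fold higher (1.68 to 3.29). At 15 days 2 of 29 were (2.74% of all genes), with a median of 0.44 against 0.12: EFNB2 (54.8, 124 and 91.8 CPM) was 2.27-fold higher (1.86 to 2.78) and SLIT2 (24, 9.4 and 13.6 CPM) 2.55-fold lower (1.63 to 4.02). Between the induced libraries none of 27 guidance genes was 2-fold apart in mural-like cells, where 0.285% of all genes were.

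Mesenchymal-like cells held most UMIs of the ligands SLIT2 and SLIT3: 81%, 56.8% and 66.4% of SLIT2 and 81.8%, 59.5% and 76.2% of SLIT3. SLIT2 (chromosome 4, 20253260 to 20620561, plus strand) was 56.6 CPM (54 to 59.3) without induction, 9.22 CPM (8.0 to 10.6) after 15 days and 12.6 CPM (11.5 to 13.8) after 45. SLIT3 was 73.4 CPM (70.5 to 76.5) without induction, 34.7 CPM (32.3 to 37.2) after 15 days and 42.8 CPM (40.6 to 45) after 45. The uninduced library was highest for both, and after induction SLIT2 was no higher than in epithelial-like cells at 45 days (13.7 CPM). Outside the named classes, the unnamed cluster 12 held SLIT2 at 41.4 CPM without induction, 35.2 CPM after 15 days and 38.9 CPM after 45. After induction that was above each named class. EPHA4, a receptor for ephrins of both classes, was 23.7 CPM (22 to 25.5) without induction, 40.7 CPM (38.1 to 43.4) after 15 days and 73.2 CPM (70.4 to 76.1) after 45. SEMA6A was 58.1, 149.7 and 115 CPM, SEMA3E 3.46, 12.7 and 9.15 CPM and PLXNA4 4.43, 14.2 and 10.2 CPM. All 4 were lowest without induction. At 45 days 2 of 32 genes were at least 2-fold apart from no induction (2.67% of all genes), SLIT2 4.49-fold lower (4.04 to 4.99) and EPHA4 3.09-fold higher (2.85 to 3.35), with a median log2 ratio of 0.14 against 0.17 for all genes. At 15 days 4 of 34 were (4.08% of all genes): SLIT2 6.14-fold lower (5.31 to 7.13), SEMA6A 2.58-fold higher (2.44 to 2.73), SEMA3E 3.68-fold higher (2.94 to 4.63) and PLXNA4 3.19-fold higher (2.61 to 3.92), with a median of 0.22 against 0.19. At 15 days the mesenchymal-like level of PLXNA4 was 7.85% and that of SEMA3E 27.9% of the neuron-like level, where 15 neuron markers stood at a median 1.98% (0.271 to 18.5%), and the part of free RNA in it was not tested. Both comparisons use the same uninduced library. Between the 15 and 45 day libraries none of 33 guidance genes was 2-fold apart in mesenchymal-like cells, where 0.654% of all genes were.

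The libraries differed in which mesenchymal-like clusters they held, and the genes differed both between and within clusters. SLIT2 and SLIT3 were highest in cluster 13, with COL15A1 and DCN among its leading genes, at 172 CPM (163 to 182) and 198 CPM (188 to 208) over all libraries, and 577 of its 632 cells came from the uninduced library. In the other 8 mesenchymal-like clusters SLIT2 lay between 3.04 and 24.7 CPM. EPHA4 was highest in cluster 4, led by LHX9, LHX2 and HOXD13, at 158 CPM (151 to 165), and 1295 of its 1763 cells came from the 45 day library. SEMA6A was highest in cluster 3, led by CLDN11, PTGFR and MEOX2, at 206 CPM (198 to 215), against 12.3 CPM in cluster 13. With each mesenchymal-like cluster weighted equally, an alternative added after seeing the data, the log2 ratio of SLIT2 was -0.39 at 45 days in place of -1.81 and -0.57 at 15 days in place of -2.12. EPHA4 became 0.58 in place of 1.45 at 45 days, and at 15 days SEMA6A became 0.48 in place of 1.29, SEMA3E 0.57 in place of 1.07 (under the level floor) and PLXNA4 0.56 in place of 1.02. None of the 5 kept the 2-fold mark, and each kept its direction. The equal weights at 15 days left out cluster 13, which held only 15 cells in that library. The 15 and 45 day values of this alternative thus rest on different sets of clusters. SEMA3E and PLXNA4 also missed it with median-of-ratios scaling (0.99 and 0.94). Inside single clusters SLIT2 was lower than without induction in 7 of 9 at 45 days and 7 of 8 at 15 days, with cluster 4 about level, and by 2-fold or more in 1 and 2. In cluster 6 SLIT2 was 30.3, 9.22 and 11.1 CPM without induction, at 15 days and at 45 days. EPHA4 was higher at 45 days in 7 of 9 clusters and by 2-fold in 2, at 81.9, 77.5 and 192 CPM in cluster 4 and 13.2, 10.8 and 31.4 CPM in cluster 0, and it was 0 against 6.04 CPM in cluster 13. At 15 days SEMA6A was higher in 7 of 8 clusters, in none by 2-fold, SEMA3E in 6 of 8, in none by 2-fold, and PLXNA4 in 5 of 8. PLXNA4 passed 2-fold in clusters 2 and 7, at 9.96 against 1.05 CPM and 9.72 against 0.73 CPM. SLIT2 in cluster 13 was 177 CPM without induction and 136 CPM in the 40 cells of the 45 day library.

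**Figure D3:**
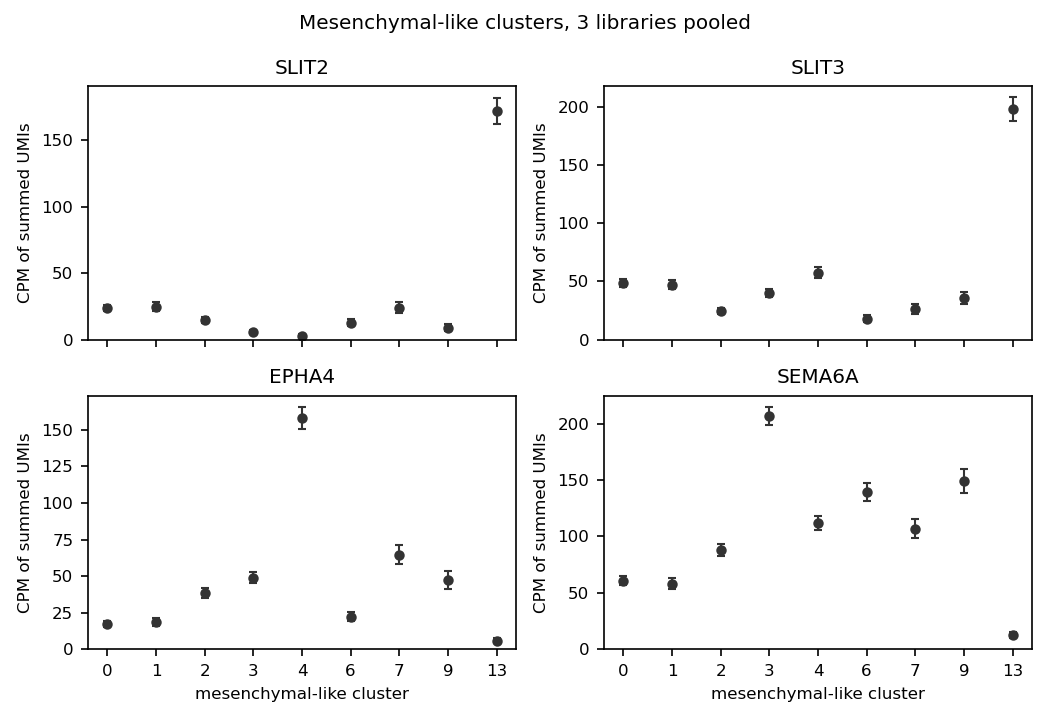
Levels (CPM of summed UMIs) of SLIT2, SLIT3, EPHA4 and SEMA6A in the 9 mesenchymal-like clusters, 3 libraries pooled, with exact 95% counting intervals. SLIT2 and SLIT3 peak in cluster 13, EPHA4 in cluster 4 and SEMA6A in cluster 3.

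Epithelial-like cells had the highest levels of the secreted SEMA3A, SEMA3C, SEMA3D and SEMA3F among the 6 classes at 15 and 45 days. The lead was not resolved for SEMA3F, which endothelial-like cells held at 35.3 and 34.1 CPM in these libraries. Nor was it for SEMA3A at 15 days, where mesenchymal-like cells held 51.3 CPM. SEMA3D was 144 CPM (134 to 156) without induction, 64 CPM (53.5 to 75.8) after 15 days and 81.8 CPM (72.6 to 91.8) after 45. SEMA3C was 63.5, 103 and 82.7 CPM, SEMA3A, the prototype axon repellent, was 48, 52.3 and 73 CPM and SEMA3F 26.2, 45.5 and 47.6 CPM. SEMA3D was highest in the uninduced library and the other 3 were lowest there. Cluster 16 held 264 of 467 of these cells without induction, and cluster 11, led by KRT15 and TP63, dominated after induction, with 228 of 252 and 440 of 519 cells in the 15 and 45 day libraries. Inside cluster 11 SEMA3D was 279, 74.3 and 99.5 CPM in the same order, and SEMA3E was 8.23, 47 and 61.8 CPM. SEMA3D was thus lower and SEMA3E higher in both induced libraries within this cluster. Haematopoietic-like cells had the highest SEMA4D, at 33.3, 48.9 and 51.1 CPM, and SEMA4A at 30.5, 59.3 and 22.5 CPM, from 66 to 94 cells per library.

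The other members were spread over several classes or low. EFNA3, an ephrin-A ligand, was 43.1 and 30.6 CPM in neuron-like and 23, 29.4 and 37.2 CPM in mesenchymal-like cells. EFNA4 and EFNB3 were highest in mesenchymal-like cells of the induced libraries, at 38.7, 40.6 and 43.6 CPM and 28.2, 30.1 and 31.3 CPM, and EFNA4 was only 1.34 and 2.33 CPM in neuron-like cells. PLXNB2 was found in all 6 classes, with its lowest levels in neuron-like cells (11.3 and 12.6 CPM). EPHA3 was 27.4, 45.1 and 36.6 CPM in mural-like cells and 16.2 and 32.2 CPM in neuron-like cells. It was also among the leading genes of the unnamed cluster 12, whose 396, 123 and 232 cells held 137, 51 and 63 of its UMIs. The 308, 397 and 644 mural-like cells held 64, 163 and 153. EPHB2 was 19.8 and 22.6 CPM in neuron-like cells, and SEMA4F 22.3 and 15.6 CPM. Between 10 and 20 CPM at their highest were EPHA1 (epithelial-like, 12.4, 7.27 and 6.27 CPM), EPHA7 (at most 11.4 CPM), PLXNB1 (at most 14.3 CPM), SEMA3B (at most 12.1 CPM), SEMA4G (neuron-like, 15.3 and 14.3 CPM) and SEMA6C (at most 18.7 CPM).

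Over whole libraries, 3 of 36 genes were at least 2-fold apart at 45 days from no induction, where 3.13% of all genes were, and 3 of 37 at 15 days, where 5.54% were. Their median log2 ratios were 0.10 and 0.21 against 0.14 and 0.20 for all genes. More cells of a type and more RNA per cell cannot be told apart in these sums. SLIT2 was 43.4 in the uninduced library, 8.0 after 15 days and 12.1 CPM after 45. SEMA3E was 5.04, 26.6 and 17.5 CPM, and PLXNA4 3.4, 29.3 and 10.6 CPM. EPHA4 was 23.7 CPM without induction and 59.9 CPM at 45 days. The sources of SEMA3E differed: the liver-gene cluster held 44% of its UMIs at 15 days, and neuron-like cells held 34.9% at 45 days. Mesenchymal-like cells, lower in level but more numerous, held a similar part at 45 days and more than neuron-like cells at 15 days. Neuron-like cells held 71.6% of PLXNA4 UMIs at 15 days. Without neuron-like cells PLXNA4 was no longer 2-fold apart at 15 days (log2 0.78 in place of 2.03), nor SEMA3E at 45 days (0.77 in place of 1.17). Between the induced libraries PLXNA4 alone was at least 2-fold apart, 2.76-fold lower (2.5 to 3.05) at 45 days, where 1.9% of all genes were called.

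**Figure D4:**
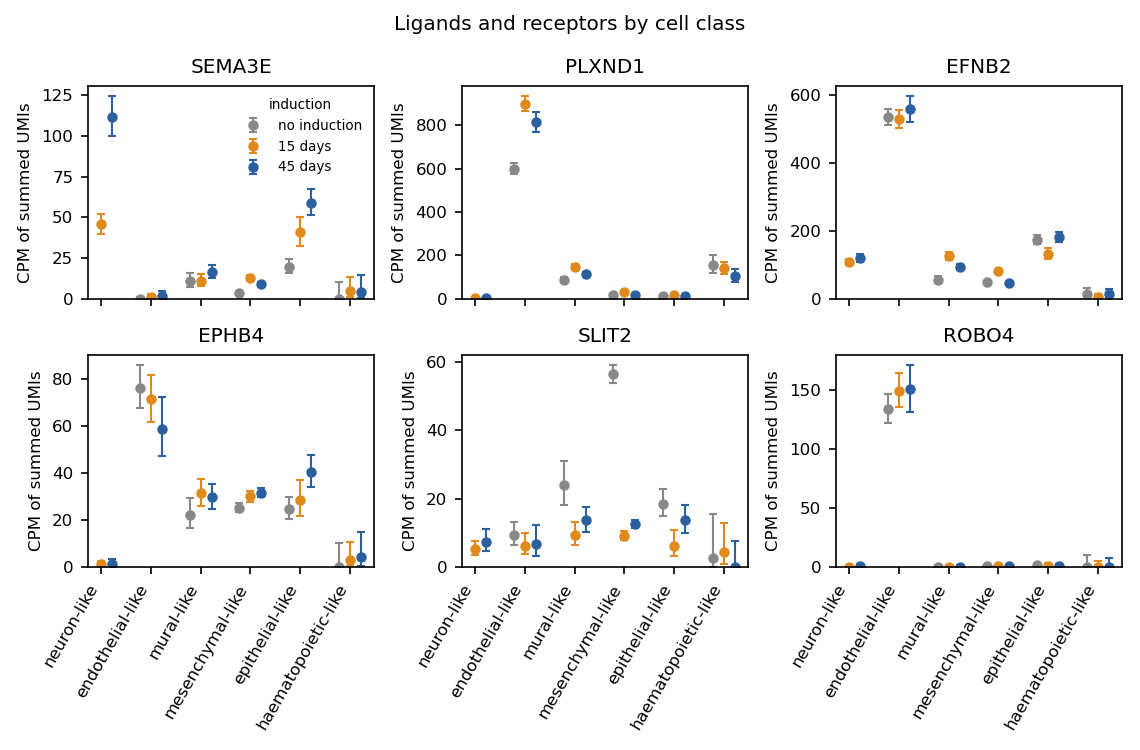
Levels (CPM of summed UMIs) of the ligands SEMA3E, EFNB2 and SLIT2 and the receptors PLXND1, EPHB4 and ROBO4 in 6 cell classes, by length of induction, 1 library each, with exact 95% counting intervals. PLXND1 in endothelial-like cells ranged from 600.0 to 899 CPM, and SEMA3E was highest, among these classes and libraries, in neuron-like cells at 45 days.

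Ligand sources were matched with receptors over 48 ligand and receptor pairs taken from textbook knowledge. A pair was counted where the receptor was at 10 CPM or more in each library that held the receiving class, and the ligand at 10 CPM or more with 20 UMIs in its highest class. For neuron-like cells 29 of 48 pairs met this. The highest ligand class was epithelial-like for 11, mesenchymal-like for 5, endothelial-like for 3, neuron-like for 3, haematopoietic-like for 2 and mural-like for 1, and it was not the same in both libraries for 4. The endothelial-like sources were EFNB2 for EPHB1, SEMA3G for PLXNA4 and SEMA4C for PLXNB2. The epithelial-like sources included SEMA3A for PLXNA1, PLXNA2 and PLXNA4, and SLIT3, paired with ROBO1 and ROBO2, was highest in mesenchymal-like cells. At 15 days neither lead was resolved. SLIT3 was 34.7 CPM (32.3 to 37.2) in mesenchymal-like and 27.9 CPM (23.5 to 32.8) in neuron-like cells. SEMA3A was 52.3 CPM in epithelial-like and 51.3 CPM in mesenchymal-like cells. Cycling cells, outside the named classes, held SLIT3 at 37.3 CPM in that library.

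For endothelial-like cells 17 of 48 pairs met the rule in all 3 libraries. The highest ligand class was epithelial-like for 6, endothelial-like for 4, mesenchymal-like for 2 and mural-like for 1, and it changed between libraries for 4. The pair SEMA3E and PLXND1 was one of those that changed: among the 6 classes SEMA3E was highest in epithelial-like cells without induction (19.7 CPM) and in neuron-like cells at 45 days (112 CPM). At 15 days neuron-like (45.6 CPM) and epithelial-like cells (40.7 CPM) had overlapping intervals, and the liver-gene cluster, outside the 6 classes, held 135 CPM (123 to 146). Endothelial-like cells held both partners of EFNB2 and EPHB4 and of EFNA1 and EPHA2. These are levels of RNA in dissociated cells, and contact or signalling between classes was not measured.

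Coreceptors and signalling partners were read from 2 further gene lists. Of 32 coreceptor and signalling genes, 11 of 27 that passed the floor were at least 2-fold higher in neuron-like cells than in the rest at 15 days and 13 of 27 at 45 days (18.9% and 21.6% of all genes), and 3 and 2 were lower (16.3% and 12.4%). L1CAM, an axonal adhesion molecule, was 205 and 177 CPM there and at most 2.0 CPM in endothelial-like cells. NRP1, the neuropilin that SEMA3A binds, was 418, 517 and 500.5 CPM in endothelial-like cells, and 131 and 51.2 CPM in neuron-like cells, where it was the 1 listed gene at least 2-fold lower at 45 than at 15 days. In endothelial-like cells 12 of 24 were higher than in the rest and 3 lower without induction, 7 and 5 of 26 at 15 days, and 8 and 5 of 27 at 45 days. Of all genes 18.1%, 14.8% and 16.6% were higher and 8.84%, 12.3% and 10.7% lower. Of 16 netrin and RGM genes, 3 of 9 were higher and 4 lower in neuron-like cells at 15 days (median log2 ratio -0.97), and 5 higher and 2 lower of 11 at 45 days (median 0.80), beside the same shares of all genes. Higher in both were RGMB, DRAXIN and DCC, the netrin receptor, the last at 25.2 and 39.5 CPM. The lower ones were FLRT2 and FLRT3, UNC5 ligands, in both libraries and NEO1 and UNC5B at 15 days. UNC5B, a netrin receptor of endothelium, was 393, 695 and 819.9 CPM in endothelial-like cells and was higher there than in the rest in each library.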

How the data were processed

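Single-cell 3′ libraries (10x Genomics, v3 chemistry) of 3 organoid pools were analysed. The values are whole-number UMI counts per gene and barcode, deposited by the authors. The submitters' processing notes name Cell Ranger 3.0.0 and GRCh38, per the file headers the software version was 3.0.1, and the annotation is not given in the sources used here. Barcodes under 1000 UMIs or 500 genes, or over 20% mitochondrial UMIs, were dropped, and doublets predicted from simulated pairs were removed at 0.8% per 1000 cells. Counts were scaled to 10000 per cell, and 2000 variable genes (members left out), 30 components, 15 neighbours and Leiden clustering at resolution 1.0 gave 20 clusters (Python 3.11.15, scikit-learn 1.9.0, leidenalg 0.10.2, umap-learn 0.5.12). Clusters were named from marker lists, and the naming score was set after seeing the data. UMIs were summed per library and class. A gene entered a comparison at 10 CPM on 1 side and 20 UMIs over both, and was called at a 2-fold difference in log2(CPM + 5). Fold intervals are exact conditional binomial intervals of the plain fold. The contrast was tested on simulated counts. Genes were named when they reached 20 CPM with 20 UMIs in a class, were called, or belonged to a pair whose receptor reached 10 CPM. Members, pairs and lists were chosen with earlier results of these data known. Coordinates are from GENCODE 29, which held all 58 identifiers, and promoter sequences from RefSeq.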

Additional observations from a re-analysis of the deposited data

How the results depend on the processing

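Counts of guidance genes at least 2-fold apart moved by over 1.5 times under some settings. With 1 CPM added in place of 5, whole libraries at 45 days against none gave 5 in place of 3, endothelial-like cells 5 in place of 3 at 45 days and 4 in place of 2 at 15 days, and mesenchymal-like cells at 45 days 4 in place of 2. With a floor of 30 CPM, whole libraries at 15 days gave 1, endothelial-like cells 1 at 45 days and 1 at 15 days, mesenchymal-like cells 2 at 15 days, and genes higher in neuron-like cells than in the rest fell to 6 at 45 days and 4 at 15 days. With mesenchymal-like, mural-like and endothelial-like sums weighted equally, whole libraries gave 1 at 45 days and 1 at 15 days. With the stricter cell filter (2000 UMIs, 1000 genes, 10% mitochondrial UMIs) neuron-like cells at 45 against 15 days gave 3 in place of 5, losing EPHA5 and SEMA3E. In alternatives chosen after seeing the data, that comparison gave 0 within neuron-like subcluster 4, where 4 genes entered, and equal weight of mesenchymal-like clusters gave 1 at 45 days and 1 at 15 days, SEMA4B and EFNB2, which were not called otherwise. The smaller sets entered under the higher floor and in the subcluster lower those counts by construction, and for the others the cause was not tested. The shares of all genes called under these settings are not given here. The counts thus show only how they move with the setting, and not a trait of the guidance genes. No called gene turned its direction when whole classes or libraries were compared under another setting. Inside single neuron-like subclusters some did, on too few UMIs to enter. SEMA3E was lower at 45 days in subclusters 2 and 4 (log2 -2.85 and -1.33). In subcluster 2 EPHA5 (-0.41), PLXNA4 (0.29) and SEMA3F (1.21) were turned too, while EFNA5 kept its direction in both. Single mesenchymal-like clusters also differed in direction, as given above. Of 205 levels by class and library, 6 moved by over 1.5 times when cells were weighted equally, and none when the genes were left in the clustering. Median-of-ratios scaling shifted log2 ratios by up to 0.21 (neuron-like against the rest at 45 days), 0.13 for mesenchymal-like cells and 0.12 for whole libraries at 15 days. No paired analysis was possible because each group is 1 library.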
